A study of Mus musculus with 2 samples.

Results

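The miR-26 microRNAs (miRNAs) of the mouse come from 3 genes, Mir26b, Mir26a-2 and Mir26a-1, each of which lies inside a Ctdsp gene. They were read from the small RNA counts of embryonic heart by gene name, and all 3 have an entry among the 1973 miRNA genes counted. The material was heart tissue of B6NCrl mouse embryos at embryonic day 14.5, with no treatment and no genetic change named, and it forms 1 group of 2 libraries numbered as biological replicates 1 and 2. The libraries were collected on 15 and 17 July 2014. Each is described as 1 heart, yet sex is entered as a pool of both and the donor entry is the same, so the labels do not settle how many embryos a library holds. If the libraries were not made from separate embryos, their spread may be technical.

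A miRNA is cut from a hairpin in a longer transcript, and 1 of the hairpin's 2 arms (5p or 3p) usually gives the strand that guides silencing. Target messages are recognised mainly through the seed, bases 2 to 8 of the mature miRNA. The Ctdsp genes encode small phosphatases that act on the tail of RNA polymerase II and on other proteins, and in human cells the miR-26 miRNAs and their host genes have been linked to restraint of the cell cycle through the retinoblastoma protein. A known target of miR-26 is the histone methyltransferase Ezh2. In the rodent heart, miR-26 has been tied to the limiting of hypertrophic growth.

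The mature sequences are shown first, because the levels of the 3 genes have to be read beside them. They are taken from RefSeq on build GRCm38.p6, the mouse assembly also called mm10, and all 3 genes matched by symbol. They are written 5′ to 3′ with the seed in capitals.
miR-26b-5p, from Mir26b: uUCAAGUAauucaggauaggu
miR-26a-5p, from Mir26a-2 and from Mir26a-1: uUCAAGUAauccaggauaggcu
miR-26b-3p, from Mir26b: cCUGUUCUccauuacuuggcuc
miR-26a-2-3p, from Mir26a-2: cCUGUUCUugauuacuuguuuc
miR-26a-1-3p, from Mir26a-1: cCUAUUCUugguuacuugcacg

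All 3 genes gave the same 5p seed, UCAAGUA, and no other gene among 1738 mature entries searched carried it. Counted from the 5′ end, with the miR-26a base first, miR-26b-5p differed from miR-26a-5p by C11U and C21U and was 21 bases long against 22. Both differences lay outside the seed. The 5p arms of Mir26a-2 and Mir26a-1 were identical over all 22 bases. Their 3p arms differed at 6 positions, among them A4G (Mir26a-1 base first), which lies in the seed. The 3p seed of Mir26a-2 was CUGUUCU, which it shared with Mir26b and, by letters alone, with Mir6932 and Mir7039. The 3p seed of Mir26a-1 was CUAUUCU and was found in no other mature entry.

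The hairpins place the shared bases. In the RefSeq hairpins below, capitals mark the longest run that also occurs in the hairpin of another annotated miRNA locus, on either strand.
Mir26b: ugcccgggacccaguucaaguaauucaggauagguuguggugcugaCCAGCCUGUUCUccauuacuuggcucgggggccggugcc
Mir26a-2: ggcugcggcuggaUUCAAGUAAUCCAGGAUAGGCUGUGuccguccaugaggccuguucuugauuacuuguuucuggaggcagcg
Mir26a-1: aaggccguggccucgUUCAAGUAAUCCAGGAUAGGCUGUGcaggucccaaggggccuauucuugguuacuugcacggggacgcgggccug

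The 2 Mir26a hairpins shared a run of 25 bases, which held all of miR-26a-5p and 3 bases after it. The longest run that Mir26b shared with any other locus was 12 bases, shorter than either of its mature arms. A search of 141767 annotated GENCODE transcripts placed miR-26a-5p in 2 genes, Mir26a-1 and Mir26a-2. The other 4 mature arms were each found in their own gene alone. In steps of 1 base, 4 of 63 windows of 22 bases in Mir26a-2 and 4 of 69 in Mir26a-1 were held by another miRNA locus, against 0 of 64 in Mir26b. These 4 windows are the ones that start at the first 4 bases of miR-26a-5p. Unannotated genome sequence was not searched.

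**Figure D1:**
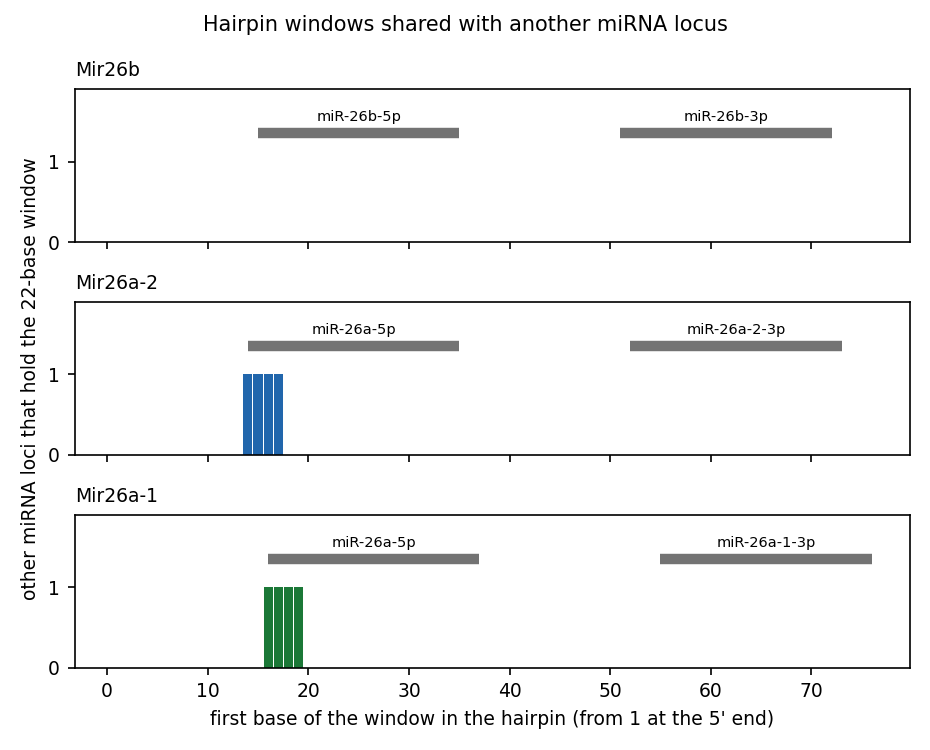
Each panel is the hairpin of 1 gene, with bars at the first base of every 22-base window that also occurs in the hairpin of another miRNA locus and grey lines for the mature arms. Mir26b has 0 such windows, and Mir26a-2 and Mir26a-1 have 4 each, all starting within the 5p arm.

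The hairpins were alike in size. They were 85 bases long in Mir26b, 84 in Mir26a-2 and 90 in Mir26a-1, with a GC content of 58.8%, 53.6% and 60.0%. RNAfold predicted a minimum free energy of -43.5 kcal/mol for Mir26b, -44.5 for Mir26a-2 and -49.4 for Mir26a-1. In the same order it paired 77.6%, 76.2% and 75.6% of the bases, and the folds themselves were not compared. Aligned end to end, Mir26b matched Mir26a-2 in 66.0% of columns and Mir26a-1 in 68.8%, and Mir26a-2 matched Mir26a-1 in 72.5%.

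All 3 genes lie on the plus strand, as do their hosts. Mir26b lies on chromosome 1, 74394310 to 74394394 (mm10), in intron 4 of the 6 introns of the principal Ctdsp1 transcript. That intron is 564 bases long, and the hairpin starts 234 bases after one exon and ends 245 bases before the next. Mir26a-2 lies on chromosome 10, 126995530 to 126995613, in intron 5 of 7 of the principal Ctdsp2 transcript, which is 1946 bases long. It also overlaps an exon in 2 of the 4 annotated Ctdsp2 transcripts. The length of that overlap was not measured, and no Ctdsp2 transcript held either mature arm of Mir26a-2 in full. Mir26a-1 lies on chromosome 9, 119031796 to 119031885, in intron 5 of 7 of the principal Ctdspl transcript, which is 3283 bases long, and overlaps no annotated exon of Ctdspl. The host genes differ in span, with 5777 bases for Ctdsp1, 21259 for Ctdsp2 and 117546 for Ctdspl. Host messages were not measured, since the libraries hold small RNA.

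The libraries held 8150499 reads in replicate 1 and 7269505 in replicate 2, and 4327424 and 3839984 of these fell on miRNA genes of the strand used. Levels are given as CPM, the counts scaled to 1000000 of those assigned reads. Intervals and floors cover the counting error of reads only and leave out the spread between libraries. Without molecular identifiers 1 molecule can give several reads, so the error in counting molecules can be larger. A further 30.6% of all reads in replicate 1 and 30.1% in replicate 2 mapped to several places and stand in the tables as a single line outside the genes. The heart muscle miRNAs hosted by myosin genes, Mir208b, Mir208a and Mir499, were all detected and summed to 75752 and 79354 CPM. Other muscle miRNA rows were low, with Mir1a-1 at 2.80 CPM on average and Mir133b, which was not detected, at 2.99 CPM. Of 3 epithelial miRNAs, Mir429 had 1263 and 1807 counts, Mir200b 373 and 571, and Mir205 51 and 360, each higher in replicate 2. The liver miRNA Mir122 had 166 and 171 counts. Of the neuronal genes for miR-124 and miR-9, 5 were measured and all had 0 counts. Over all 1973 genes, 1285 had 0 counts in both libraries. Both miR-124 and miR-9 are made at several loci, and every arm of Mir9-2 and Mir9-3 also occurs at another locus. Reads that map to several places are outside the rows, so the 0 counts of the neuronal genes do not show that neuronal material was absent.

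Mir26b (ENSMUSG00000065468.1) was one of the highest rows among reads assigned to miRNA genes in the embryonic heart, whereas the 2 Mir26a rows were low. Mir26b had 148295 counts in replicate 1 and 129515 in replicate 2. These gave 34269 CPM (exact Poisson 95% interval 34094 to 34444) and 33728 CPM (33545 to 33912), or 33998 ± 382 CPM (SD, n = 2). It held 3.40% ± 0.0382 of the assigned reads and 1.80% ± 0.0268 of all reads. Both libraries were at much the same level, and the spread was 1.12% of the mean.

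Mir26a-2 (ENSMUSG00000065430.1) had 176 counts in replicate 1 and 128 in replicate 2. These gave 40.7 CPM (34.9 to 47.1) and 33.3 CPM (27.8 to 39.6), or 37.0 ± 5.19 CPM (SD, n = 2). Mir26a-1 (ENSMUSG00000065513.1) had 39 counts in replicate 1 and 43 in replicate 2, or 10.1 ± 1.55 CPM, from 9.01 CPM (6.41 to 12.3) and 11.2 CPM (8.10 to 15.1). The count intervals of the 3 genes did not overlap in either library, so the order Mir26b, Mir26a-2, Mir26a-1 held in both. In CPM, a floor of 3 counts was 0.693 for replicate 1 and 0.781 for replicate 2, and Mir26a-1 stood above it in both.

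**Figure D2:**
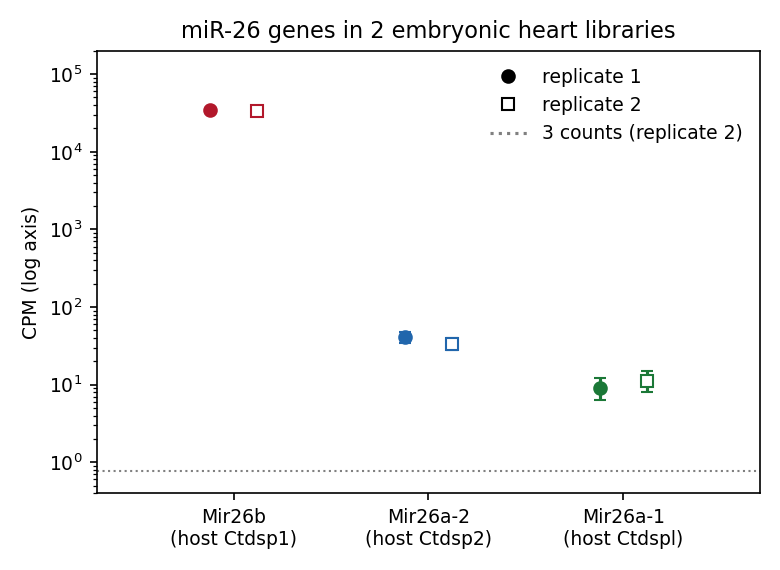
CPM of the 3 miR-26 genes on a log axis, with filled circles for replicate 1, open squares for replicate 2 and bars for exact Poisson 95% intervals. Mir26b lies at 33728 to 34269 CPM, Mir26a-2 at 33.3 to 40.7 CPM and Mir26a-1 at 9.01 to 11.2 CPM, above the dotted line for 3 counts in replicate 2.

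Within a library the gaps between the genes were far larger than counting error. Mir26b lay 843-fold above Mir26a-2 in replicate 1 (exact 95% counting interval 727 to 982) and 1012-fold in replicate 2 (851 to 1213). It lay 3802-fold above Mir26a-1 in replicate 1 (2781 to 5348) and 3012-fold in replicate 2 (2236 to 4162). The 2 copies with the identical 5p arm differed less, with Mir26a-2 above Mir26a-1 by 4.51-fold in replicate 1 (3.17 to 6.56) and 2.98-fold in replicate 2 (2.09 to 4.31). The intervals for replicates 1 and 2 overlapped for each of these 3 ratios.

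The 3 genes summed to 34045 ± 386 CPM, of which Mir26b gave 99.86% ± 0.00913 and the 2 Mir26a genes together gave 0.138% ± 0.00913. In counts, the Mir26a pair had 215 reads in replicate 1 and 171 in replicate 2. These shares describe assigned reads alone. A read of miR-26a-5p matches both Mir26a loci equally, and reads that map to several places are outside every gene row. The part of that sharing in the low Mir26a rows was not tested. For scale, the Mir26b count equals 5.93% ± 0.0181 of the reads that mapped to several places. The tables do not say which miRNAs those reads came from, so no level of miR-26a-5p can be given, and the order of miR-26b and miR-26a in the heart is not settled by these rows. The rows also do not separate 5p from 3p reads.

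Reads on the opposite strand were nearly absent. Mir26b and Mir26a-2 had 0 counts there in both libraries, and Mir26a-1 had 1 count in replicate 1 and 0 in replicate 2.

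All 3 genes were detected, meaning at least 10 counts in each library. Of all 1973 genes, 337 (17.1%) were. Among the detected genes Mir26b ranked 9 by mean CPM, Mir26a-2 ranked 221 and Mir26a-1 ranked 277. Mir26b ranked 10 in replicate 1 and 9 in replicate 2. These ranks leave out the reads that mapped to several places, so miRNAs made at several loci can stand too low among them. It changed places with Mir30e, which had 36682 and 31138 CPM (33910 ± 3920), so these neighbours did not differ beyond their spread.

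Directly above Mir26b stood the let-7 miRNA Mirlet7i, with 40445 CPM in replicate 1 and 34625 in replicate 2 (37535 ± 4115). Mirlet7g came next with 43488 and 39444 CPM, then Mir99a with 56147 and 59214. All 3 lay above Mir26b in both libraries, Mirlet7i in replicate 2 by less than its own SD. Below Mir30e followed Mir21a, at 24189 and 23309 CPM, and Mir351, at 27184 and 20309. Both lay below Mir26b in both libraries, and their order between themselves differed by library. Mir335, the most abundant gene at 119648 ± 7637 CPM, stood 3.52 ± 0.185 times above Mir26b.

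**Figure D3:**
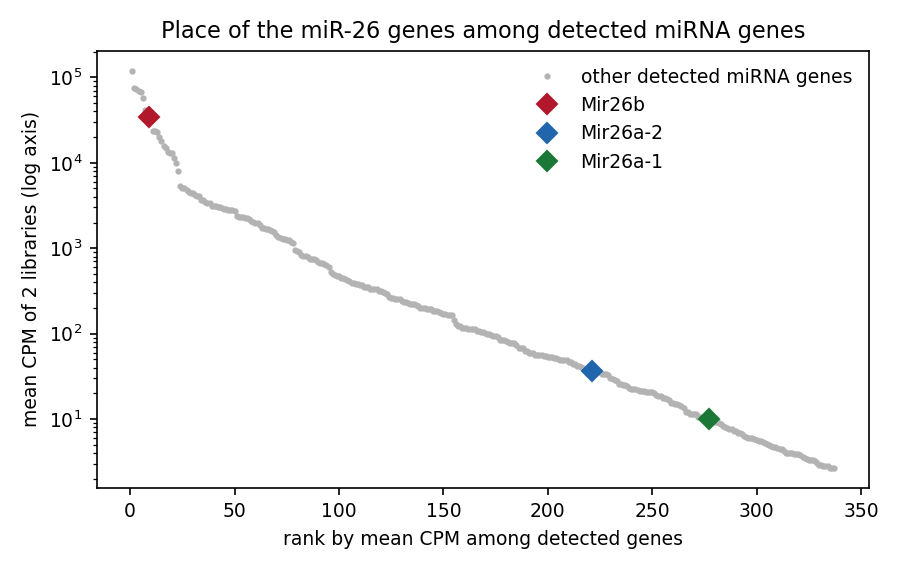
Mean CPM of the 2 libraries (log axis) against rank for the 337 detected miRNA genes, with the miR-26 genes as diamonds. Mir26b lies at rank 9 in the steep upper end, and Mir26a-2 and Mir26a-1 lie at ranks 221 and 277 in the long lower slope.

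At the lower levels the ranks carried little weight. Next to Mir26a-2 stood Mir3074-1 at 37.2 ± 0.0249 CPM and Mir701 at 36.2 ± 5.13. Next to Mir26a-1 stood Mir669e at 10.1 ± 1.89 CPM and Mir378c at 9.71 ± 1.95. The Mir26a genes did not differ from these neighbours beyond their spread.

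The 3 myosin-hosted heart muscle miRNAs give a tissue reference for Mir26b. They lie in introns of myosin heavy chain genes, and none shares a mature arm with another miRNA locus. Mir26b stood at 0.511 ± 0.00850 times Mir208b, which had 66314 and 66822 CPM. It stood 11.3 ± 0.792 times above Mir499, which had 2896 and 3149 CPM. Mir208a had 6542 and 9382 CPM, and Mir26b was 5.24-fold above it in replicate 1 and 3.59-fold in replicate 2. Thus Mir26b lay between the myosin-hosted miRNAs, below Mir208b and above the other two in both libraries.

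The Pank-hosted miRNAs are built most like the miR-26 family. Mir107, Mir103-2 and Mir103-1 lie in introns of Pank1, Pank2 and Pank3, which encode the enzymes that start coenzyme A synthesis. They too share 1 seed, and 2 of the 3 genes give an identical main arm, here the 3p arm. The arms are shown with the seed in capitals, for comparison with those of miR-26.
miR-107-3p, from Mir107: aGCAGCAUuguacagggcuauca
miR-103-3p, from Mir103-2 and Mir103-1: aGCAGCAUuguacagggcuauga

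These arms differ by G22C, with the miR-103 base first. Mir26b stood 10.9 ± 0.194 times above Mir107, the Pank-hosted gene with no arm shared in full, which had 3102 and 3131 CPM. Mir107 is less free of shared sequence than Mir26b. Of its 66 windows of 22 bases, 5 also occurred at another miRNA locus, against 0 of 64 in Mir26b. A read of miR-107-3p that ends before base 22 matches the Mir103 loci as well. The copies with the shared arm were low in both families. Mir26a-2 and Mir26a-1 averaged 37.0 ± 5.19 and 10.1 ± 1.55 CPM, against 35.5 ± 3.52 for Mir103-2 and 3.37 ± 1.5 for Mir103-1. The gap from the gene without a shared arm to the higher copy was 927 ± 120 for miR-26 and 88.1 ± 8.15 for the Pank-hosted miRNAs. The gap between the 2 copies was 3.74 ± 1.09 for Mir26a-2 over Mir26a-1 and 11.4 ± 4.04 for Mir103-2 over Mir103-1. Sharing was not equal in the 2 families. Windows of 22 bases held by another locus were 10 of 65 in Mir103-2 and 8 of 65 in Mir103-1. Each Mir26a gene had 4. The part of this in the gaps was not tested.

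Other pairs in related hosts also share an arm. Mir128-1 and Mir128-2, in introns of R3hdm1 and Arpp21, share the 3p arm and reached 115 ± 9.02 and 18.6 ± 5.35 CPM. Mir218-2 and Mir218-1, in introns of Slit3 and Slit2, share the 5p arm and reached 48.9 ± 12.6 and 20.6 ± 2.60 CPM. In this list of 13 genes the 8 with an arm at another locus lay between 2.31 and 121 CPM in the 2 libraries, and the 5 without one lay between 2896 and 66822 CPM. The 13 genes were chosen with earlier results of these data known, and the separation is a description of these rows.

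**Figure D4:**
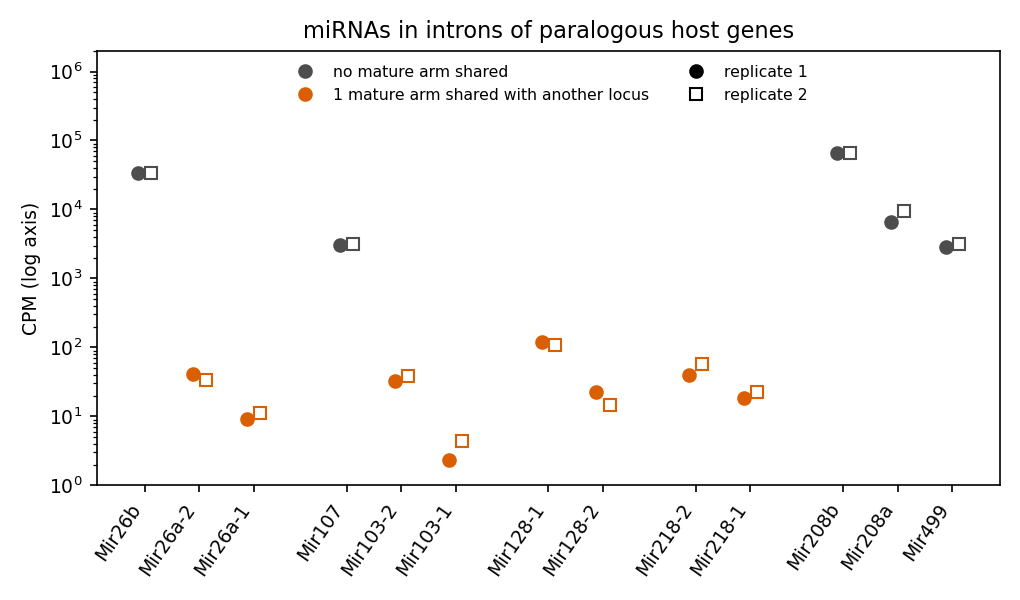
CPM (log axis) of 13 miRNA genes in introns of related host genes, grouped by host family with the Ctdsp-hosted miR-26 genes at the left, circles for replicate 1 and open squares for replicate 2. Orange marks the 8 genes with a mature arm that another miRNA locus also holds, all at or below 121 CPM, and grey the 5 without one, all at or above 2896 CPM.

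The same was counted over the measured genes with 2 or more annotated arms whose name could be matched to a mature sequence. Genes without a match were left out, among them Mir143 at 74458 CPM and Mir145a at 1338 CPM. Of 56 genes in which 1 arm also occurs at another miRNA locus, 34 were detected and 3 reached 1000 CPM (Mir92-1, Mir16-1 and Mirlet7f-2). Of 509 genes in which no arm does, 224 were detected and 64 reached 1000 CPM. Of 18 genes in which every arm does, 4 were detected and 0 reached 1000 CPM. Among the 34 detected genes with 1 such arm, Mir26a-2 ranked 22 and Mir26a-1 ranked 30. The median of the detected genes was 51.2 CPM for the 34, above both Mir26a genes, and 173 CPM for the 224.

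The level of Mir26b differed little between the libraries, while the wide intervals of the 2 Mir26a genes leave the size of their differences unclear. The CPM ratio of replicate 1 to replicate 2 was 1.02 for Mir26b (exact 95% counting interval 1.01 to 1.02), 1.22 for Mir26a-2 (0.966 to 1.54) and 0.805 for Mir26a-1 (0.508 to 1.27). With 1 library a side there is no replicate check, so no p-value is given. The interval of Mir26b, which covers counting error only, lies above 1. For Mir26a-2 and Mir26a-1 the intervals include 1, and a difference was not detectable at this depth. Among the 337 detected genes 43 (12.8%) differed by more than 1.5-fold in either direction, and 0 of the 3 miR-26 genes did.

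On the log2(CPM + 1) scale the differences of replicate 1 over replicate 2 were 0.02 for Mir26b, 0.28 for Mir26a-2 and -0.28 for Mir26a-1. The median absolute value was 0.22 over the 337 detected genes and 0.19 over the 170 genes that averaged 100 CPM or more. Of those 170, 11 had a smaller absolute difference than Mir26b. Scaling moves this closeness: median-of-ratios factors shifted every gene by 0.11 on the log2 scale and TMM factors by 0.07. The difference of Mir26b became 0.14 with the first and 0.09 with the second. The genes nearest to Mir26b in this difference, among those of at least 100 CPM, were Mir484 (0.02), Mir324 (0.02) and Mir467c (0.03), a likeness over 2 libraries only.

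**Figure D5:**
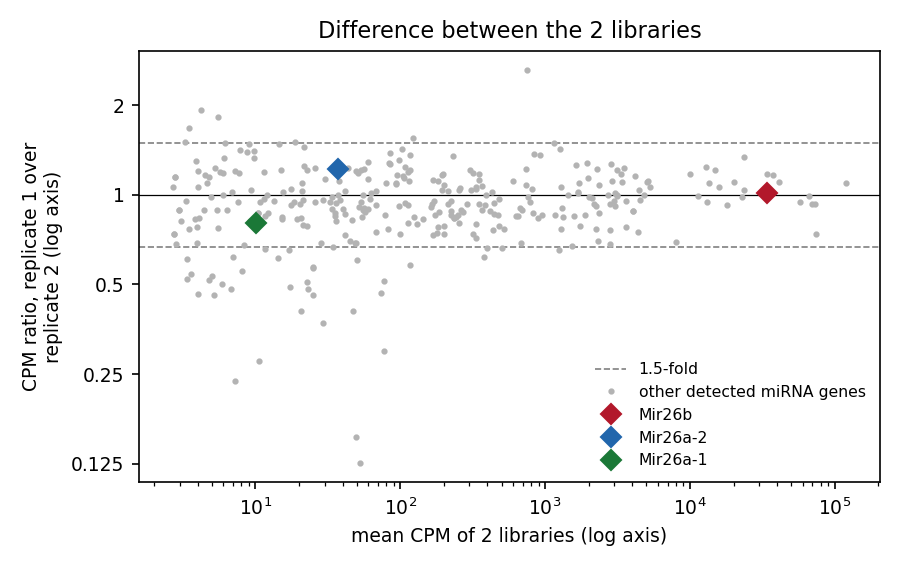
CPM ratio of replicate 1 over replicate 2 against mean CPM for the 337 detected miRNA genes, both on log axes, with dashed lines at 1.5-fold. The miR-26 genes (diamonds) lie at 1.02, 1.22 and 0.805, all between the dashed lines.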

How the data were processed

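Small RNA libraries of embryonic mouse heart were analysed from the read counts per miRNA gene that the authors deposited, 1 table per library. Per the file descriptions, the deposited counts refer to mm10 and GENCODE M4, with aligner and counter not given in the sources used here. Values are whole numbers, unstranded and by strand, and the strand sums matched the unstranded count for 1973 of 1973 genes. The strand-specific counts in column 3 were used, which held 95.3% and 95.4% of gene reads. Totals leave out the 4 lines without a gene. They held 46.9% and 47.2% of all reads, and reads mapping to several places are among them.

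Gene names and positions came from GENCODE M21, on the same assembly (1894 of 1973 matched), and sequences from RefSeq, GRCm38.p6. Shared sequence was sought by exact match, on both strands, in annotated miRNA hairpins and in GENCODE transcripts. The whole-genome search first planned was not made, since no genome sequence was used here, and loci that overlap counted as 1. Mean ± SD, exact Poisson intervals and conditional exact binomial intervals were computed in Python 3.11.15 with scipy 1.17.1, scaling factors with edgeR 4.0.16 and DESeq2 1.42.0, and folds with RNAfold 2.7.2. Interval code was tested on simulated data. With 1 group of 2 libraries no test between conditions was made.

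The members, the lists and the rule for named genes were chosen with earlier results of these data known. The rule took the 3 miR-26 genes, 10 miRNAs in introns of related hosts, the 3 genes on each side of Mir26b by level, the 3 nearest in ratio between libraries and the most abundant gene. Mir92-1, Mir16-1, Mirlet7f-2, Mir1a-1, Mir133b and the neighbours of the Mir26a genes were chosen after their values were seen. Of the fixed cell type markers, endothelial, smooth muscle and blood cell miRNAs were also present. Mir126a averaged 72473 CPM, Mir143 and Mir145a 74458 and 1338, Mir451a 753 (1090 in replicate 1 and 415 in replicate 2), Mir144 84.0, and Mir223 and Mir155 318 and 116. The epithelial Mir200b and Mir429 averaged 117 and 381 CPM.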

Additional observations from a re-analysis of the deposited data

How the results depend on the processing

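Of 87 alternative values for 14 results, 65 stayed within tolerance and 22 moved by more. Part of the 65 could not have moved. The ratio of Mir26b to Mir26a-2 and the share of Mir26b do not change with scaling. Leaving out 1 replicate shifts a mean by less than 1 SD. The tolerance was 1 SD between libraries, the 95% interval where there was no SD, and 1.5-fold for the number of detected genes. With the unstranded column Mir26b was at 32418 CPM, rank 10, and the sum of the 3 genes at 32463 CPM. With the other strand column, scaled to its own smaller total, Mir26b and Mir26a-2 were at 0 CPM, so no rank or ratio was obtained. Mir26a-1 and the sum were at 2.33 ± 3.30 CPM there, which rests on 1 count in replicate 1 and 0 in replicate 2. Scaled to 1000000 of all reads, Mir26b was at 18005, Mir26a-2 at 19.6, Mir26a-1 at 5.35 and the sum at 18030. With the most abundant gene left out of the total, Mir26b was at 38622 and the sum at 38676 CPM. The log2 difference between libraries for Mir26b was then 0.041, against 0.088 with TMM and 0.14 with median-of-ratios factors, which also put Mir26b at rank 10. Leaving out 1 replicate, Mir26b ranged from 33728 to 34269 CPM and from rank 9 to 10. Mir26a-2 ranged from 33.3 to 40.7 CPM and Mir26a-1 from 9.01 to 11.2 CPM. The sum ranged from 33773 to 34318 CPM, Mir26b's share of it from 99.855% to 99.868%, and the ratio of Mir26b to Mir26a-2 from 843 to 1012. Of all genes, 542 had at least 1 count in each library, 688 a count in either and 231 at least 100 in each, against 337 with at least 10. With windows of 25 bases, 98.3% of Mir26a-2 windows and 98.5% of Mir26a-1 windows occurred at no other miRNA locus, against 93.7% and 94.2% with 22 bases. The cause of these moves was not tested where the changed total or window does not give it. No paired analysis was possible because the libraries form 1 group. Depth limits the Mir26a genes, whose counts lie between 39 and 176.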
